A study of Mus musculus with 21 samples.

Results

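The genes described here are 32 genes of the p53 pathway, *Trp53* itself with its best known targets in cell-cycle arrest, apoptosis and DNA repair, among the 55400 genes of the count table. They were chosen by name, with their expression in all 7 groups of the study already known, so the counts below describe these libraries and are not independent support for a change of the pathway. All 32 symbols matched 1 gene each. By role they fall into a core circuit of 3 genes (*Trp53*, *Mdm2*, *Trp73*), 9 genes of arrest and growth control, 13 of apoptosis, 5 of repair and nucleotide supply, and 2 other targets (*Dcxr*, *Cd82*).

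The p53 protein, encoded by *Trp53*, is a transcription factor that is kept low in unstressed cells by Mdm2, a ubiquitin ligase that marks it for destruction. DNA damage and other stresses release it from Mdm2, and it then binds response elements made of a pair of short half-sites and activates its targets, *Mdm2* among them, which closes a negative feedback loop. Control of p53 acts largely on the protein, so the mRNA of *Trp53* does not report its activity. In neural development the pathway is known for removing damaged progenitors.

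The samples were wild-type C57BL/6 mouse embryonic stem cells, grown on mitotically inactivated mouse fibroblasts and then differentiated as embryoid bodies toward hypaxial motor column motor neurons. Cells received retinoic acid (1 µM) and the Sonic Hedgehog agonist SAG (0.5 µM) from day 2, and the groups after D4 also received the Notch pathway inhibitor DAPT (5 µM). At D5 the cells went into basal medium with DAPT, for which neither retinoic acid nor SAG is listed, so the step from D5 to D6 and this change of medium cannot be told apart. Untreated cells were collected at day 4 (D4), 8 hours later (D4H8), at day 5 (D5) and at day 6 (D6), and cells given the Kdm6 demethylase inhibitor GSKJ4 for the 1 day before collection were collected at D4H8, D5 and D6. GSKJ4 thus went in before DAPT in the D4H8 group. Each of the 7 groups held 3 biological replicates, 21 libraries of poly(A) RNA in all. The labels give neither the GSKJ4 dose nor what the untreated cells received in its place.

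The libraries held 14982115 to 34383842 counted reads (median 16238435). Levels are given as FPKM, the authors' counts scaled to exonic length and library size, and changes as log2 fold changes with their standard error (SE) from the quasi-likelihood test of edgeR, run on raw counts, with Benjamini-Hochberg adjustment across all tested genes, and called at an adjusted p under 0.05. All samples are labelled as differentiated motor neurons, but the markers of that type were low at D4. The summed level of 12 motor neuron markers (*Isl1*, *Chat* and others) was 47.3 to 89.4 FPKM at D4, 252 to 439 at D4H8, 1606 to 1840 at D5 and 2912 to 3199 at D6. In bulk RNA, fewer expressing cells and less RNA per cell cannot be told apart. In each of the 7 groups replicate 1 had the lowest summed level of 10 pluripotency markers, and 1 library (D5+GSKJ4 replicate 2) had 39381 genes without a read, against 29339 to 32805 in the other 20.

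The 250 bases before the transcription start of 3 members are shown, as examples of genes that were called higher after GSKJ4 and hold the p53 motif there. The motif searched was the p53 half-site consensus (10 bases, read the same on both strands), and capitals mark each match. The sequences are RefSeq's on GRCm38.p6, the build of the deposited tables (mm10), 5′ to 3′ on the gene's strand, for *Cdkn1a* at chr17:29090729-29090978 (plus strand), *Mdm2* at chr10:117710759-117711008 (minus strand) and *Ccng1* at chr11:40755287-40755536 (minus strand).
Cdkn1a: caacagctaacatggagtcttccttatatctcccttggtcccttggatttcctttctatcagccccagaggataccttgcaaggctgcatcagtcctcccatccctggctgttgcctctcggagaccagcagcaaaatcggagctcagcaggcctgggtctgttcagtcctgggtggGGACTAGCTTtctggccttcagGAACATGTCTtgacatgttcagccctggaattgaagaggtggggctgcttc
Mdm2: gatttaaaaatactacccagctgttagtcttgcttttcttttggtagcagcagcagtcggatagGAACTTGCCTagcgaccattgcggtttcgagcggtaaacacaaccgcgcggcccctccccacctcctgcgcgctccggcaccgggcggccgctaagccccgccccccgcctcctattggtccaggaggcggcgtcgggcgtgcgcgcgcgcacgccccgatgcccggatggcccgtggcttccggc
Ccng1: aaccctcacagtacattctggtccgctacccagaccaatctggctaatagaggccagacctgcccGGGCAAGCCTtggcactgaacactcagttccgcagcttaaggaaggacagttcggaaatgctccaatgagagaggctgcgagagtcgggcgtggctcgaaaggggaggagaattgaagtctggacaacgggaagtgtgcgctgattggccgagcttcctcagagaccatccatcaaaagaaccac
The *Cdkn1a* half-sites begin 73 and 51 bases before the start, that of *Mdm2* 186 bases and that of *Ccng1* 185 bases before it. RefSeq promoter windows were at hand for 24 of the 32 members, and 10 of these genes (41.7%) held at least 1 half-site, against 2216 of 27025 genes (8.20%). A pair of half-sites with at most 13 bases between them lay in 1 member, *Cdkn1a*, and in 18 of all genes (0.0666%). *Polk* meets both conditions too, with a half-site 231 bases before one of its 2 starts, and *Eda2r*, also called higher, has a window without one. So 4 of the 5 called members with windows held the motif, beside 6 of the 19 other members with windows (31.6%). The members were chosen as known p53 targets, so their share against all genes is not independent support. The other members with a half-site were *Ddit4l*, *Bax*, *Aen*, *Ei24*, *Sesn1* and *Trp53*. A match shows the letters and not binding, and many p53 sites are known to lie outside such windows. Windows for *Perp*, *Ddb2*, *Pmaip1*, *Xpc*, *Tnfrsf10b*, *Trp53inp1*, *Zmat3* and *Rrm2b* were not used here.

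At D4 the levels of the members, per exonic length, ran from *Ccng1* at the top to *Trp73* near 0. *Ccng1*, a cyclin that feeds back on p53 through Mdm2, had 96.5 ± 5.8 FPKM (SD, n = 3), and *Bax*, the pore-forming protein of the mitochondrial death pathway, had 93.3 ± 3.0. These 2 did not differ beyond their spread. *Trp53* followed with 43.9 ± 3.3, then came *Trp53inp1* (31.4 ± 4.5), *Phlda3* (31.3 ± 4.1) and *Ei24* (29.3 ± 2.6), whose spreads overlap. At the other end *Cd82* had 0.707 ± 0.031 FPKM, *Fas* 0.183 ± 0.090 and *Trp73*, the p53 homologue, 0.0367 ± 0.025. *Trp73* had at most 38 counts in any library and did not pass the filter on low counts in any comparison, and *Fas* (at most 32 counts) failed it in the GSKJ4 comparison at D6. So 31 members were tested in most comparisons. In 5 of these 31 members over 6% of the exonic bases are shared with another gene. The shared part is 23.8% for *Ddb2* (with *Acp2*), 12.2% for *Bax*, 8.04% for *Rrm2b*, 7.68% for *Cdkn1a* and 6.66% for *Ei24*. The counting strand is not given in the sources used here, so reads in those parts cannot be assigned with certainty.

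The first question was how the pathway moved as untreated cells passed from progenitors to motor neurons. From D4 to D6, 7 members rose and 17 fell, while 7 of the 31 were not called. *Trp53*, most apoptosis genes and *Mdm2* fell, while *Cdkn1a*, *Plk2*, *Fbxw7*, *Rrm2b*, *Bbc3*, *Xpc* and *Sesn1* rose. Of all tested genes 32.9% were called higher and 31% lower in this comparison, so the 54.8% of members called lower stood above that background and the 22.6% called higher below it. The median log2 fold change of the members was -0.50 and that of all tested genes -0.04. Other lists moved over the same course. All 25 cell-cycle genes were called lower (median -2.64), as were 10 of 14 integrated stress response genes (median -1.50). So were 5 of 8 progenitor markers and 13 of 29 other p53 targets, while 12 of 12 motor neuron markers were called higher. Called higher too were 6 of the 29 other p53 targets, 2 of the 8 progenitor markers and 1 of the 14 stress response genes. Their part in the member values was not tested.

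*Trp53* had 40.4, 46.9 and 44.4 FPKM in the 3 D4 libraries, 50.1, 47.9 and 45.5 at D4H8, 14.4, 27.1 and 30.0 at D5 and 15.1, 18.4 and 23.3 at D6. The D4 and D4H8 values lie above every D5 and D6 value. The fall came between D4H8 and D5 (log2 fold change -1.01, SE 0.21, adjusted p = 0.0023), and D6 against D4 gave -1.15 (SE 0.21, adjusted p = 0.00024). *Mdm2* had 19.3, 23.3 and 23.0 FPKM at D4, 20.6, 21.3 and 25.2 at D4H8, 24.8, 19.2 and 21.9 at D5 and 11.54, 14.6 and 14.4 at D6. It was level until D5 and then fell without overlap (D6 against D5 -0.59, SE 0.13, adjusted p = 0.0027).

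Among the arrest and growth-control genes 4 of 9 rose and 3 fell from D4 to D6, where 32.9% of all tested genes were called higher and 31% lower. *Cdkn1a*, which encodes the cyclin-dependent kinase inhibitor p21, had 17.7, 16.1 and 17.8 FPKM at D4, 13.04, 17.7 and 16.5 at D4H8, 19.1, 21.5 and 24.9 at D5 and 18.4, 25.3 and 24.5 at D6. Its D6 and D4 values do not overlap, and the change was 0.46 (SE 0.14, adjusted p = 0.012). *Plk2*, a polo-like kinase, had 7.19, 8.15 and 7.20 FPKM at D4 and 16.4, 19.9 and 20.3 at D6 (1.39, SE 0.19, adjusted p = 1.9e-05). *Fbxw7*, a substrate receptor of a ubiquitin ligase for cyclin E, moved between D4H8 and D5 (1.54, SE 0.15, adjusted p = 3.8e-06) and was 1.33 (SE 0.15) higher at D6 than at D4. *Ddit4l*, an inhibitor of mTOR signalling, fell most of all members, from 3.44, 2.99 and 3.53 FPKM at D4 to 0.23, 0.67 and 0.57 at D6 (-2.71, SE 0.33, adjusted p = 7.1e-06).

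*Btg2*, an antiproliferative gene that marks progenitors at their last division, was the member that moved most in the first 8 hours. It had 14.6, 16.4 and 18.3 FPKM at D4, 47.3, 35.1 and 41.0 at D4H8, 18.8, 23.1 and 22.2 at D5 and 5.85, 8.70 and 11.46 at D6. Every D4H8 library lies above every other untreated library, a single peak in the course. The rise was 1.28 (SE 0.18, adjusted p = 0.00077) and the falls after it were -0.95 (SE 0.18, adjusted p = 0.0015) and -1.19 (SE 0.19, adjusted p = 0.000305).

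In the apoptosis group 9 of 13 genes fell from D4 to D6 and 1 rose, beside the 31% of all tested genes called lower and 32.9% called higher. The largest falls were those of 2 receptor genes and 2 effectors. *Tnfrsf10b*, the mouse TRAIL receptor, went from 7.6, 7.08 and 9.46 FPKM at D4 to 0.69, 1.83 and 2.57 at D6 (-2.20, SE 0.31, adjusted p = 3.0e-05). *Eda2r*, a receptor for ectodysplasin, went from 12.5, 10.7 and 10.2 to 2.29, 3.92 and 3.89 (-1.68, SE 0.18, adjusted p = 2.6e-06). *Pmaip1*, which encodes the BH3-only protein Noxa, went from 9.26, 9.81 and 12.4 to 0.52, 2.55 and 3.85 (-2.14, SE 0.44, adjusted p = 0.000705). None of these 3 genes had overlapping D4 and D6 libraries. *Perp*, a membrane protein of the tetraspan type, went from 9.08, 8.30 and 10.95 to 0.82, 3.57 and 4.35 (-1.65, SE 0.38, adjusted p = 0.0017).

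The exception in the group was *Bbc3*, which encodes the BH3-only protein Puma. It had 11.7, 12.7 and 14.0 FPKM at D4 and 20.2, 22.1 and 19.9 at D6 (0.77, SE 0.17, adjusted p = 0.0013). The 2 BH3-only genes thus moved in opposite directions over the course. *Pidd1* (-0.34, SE 0.15), *Apaf1* (0.22, SE 0.12) and *Fas* (-0.20, SE 0.76) were not called. In the D6 group, replicate 1 was lowest for *Pmaip1*, *Perp* and *Tnfrsf10b*, and its pluripotency sum was 16.5 FPKM against 126 and 113 in replicates 2 and 3. Its sum of 25 cell-cycle genes was 148 against 326 and 383, and that of 7 endoderm markers 26.25 against 47.4 and 62.9. It was also lowest for *Trp53*, *Mdm2*, *Eda2r*, *Bax*, *Phlda3* and *Ddit4l*, among others. The part of those differences in the values of these genes was not tested. Without D6 replicate 1 the changes of *Pmaip1*, *Perp* and *Tnfrsf10b* were -1.67, -1.22 and -1.83, all still called.

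Of the 5 repair and nucleotide-supply genes 2 were called higher and 2 lower from D4 to D6, beside 32.9% and 31% of all tested genes. *Rrm2b*, the p53-inducible subunit of ribonucleotide reductase, rose from 1.45 to 1.78 FPKM at D4 to 3.69 to 3.96 at D6 (1.28, SE 0.15, adjusted p = 4.0e-06). *Xpc*, a sensor of damage in nucleotide excision repair, rose by a smaller step (0.51, SE 0.12, adjusted p = 0.0024). *Polk*, a translesion DNA polymerase, fell (-1.02, SE 0.17, adjusted p = 0.00016), as did *Ddb2*, another damage sensor (-0.94, SE 0.26, adjusted p = 0.0059), while *Ercc5* was not called (0.10, SE 0.12). Among the other targets *Dcxr*, a carbonyl reductase, fell (-1.34, SE 0.26, adjusted p = 0.00041), and *Cd82* was not called (0.86, SE 0.37).

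By steps, D4H8 against D4 called 1 member higher (*Btg2*) and 2 lower (*Ccng1* and *Aen*), against 4.06% and 0.32% of all tested genes. D5 against D4H8 called 4 higher and 7 lower (background 17.2% and 10.5%), and D6 against D5 called 2 higher and 6 lower (background 19.2% and 15.1%). The D4H8 calls of *Ccng1* (-0.56, SE 0.12) and *Aen* (-0.46, SE 0.11) rest on few libraries, since without D4 replicate 1, D4H8 replicate 1 or D4H8 replicate 2 the comparison called *Btg2* alone. D5 against D4H8 called 7 members without D4H8 replicate 3, and D6 against D5 called 5 without D5 replicate 2 and 4 without D6 replicate 1.

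**Figure D1:**
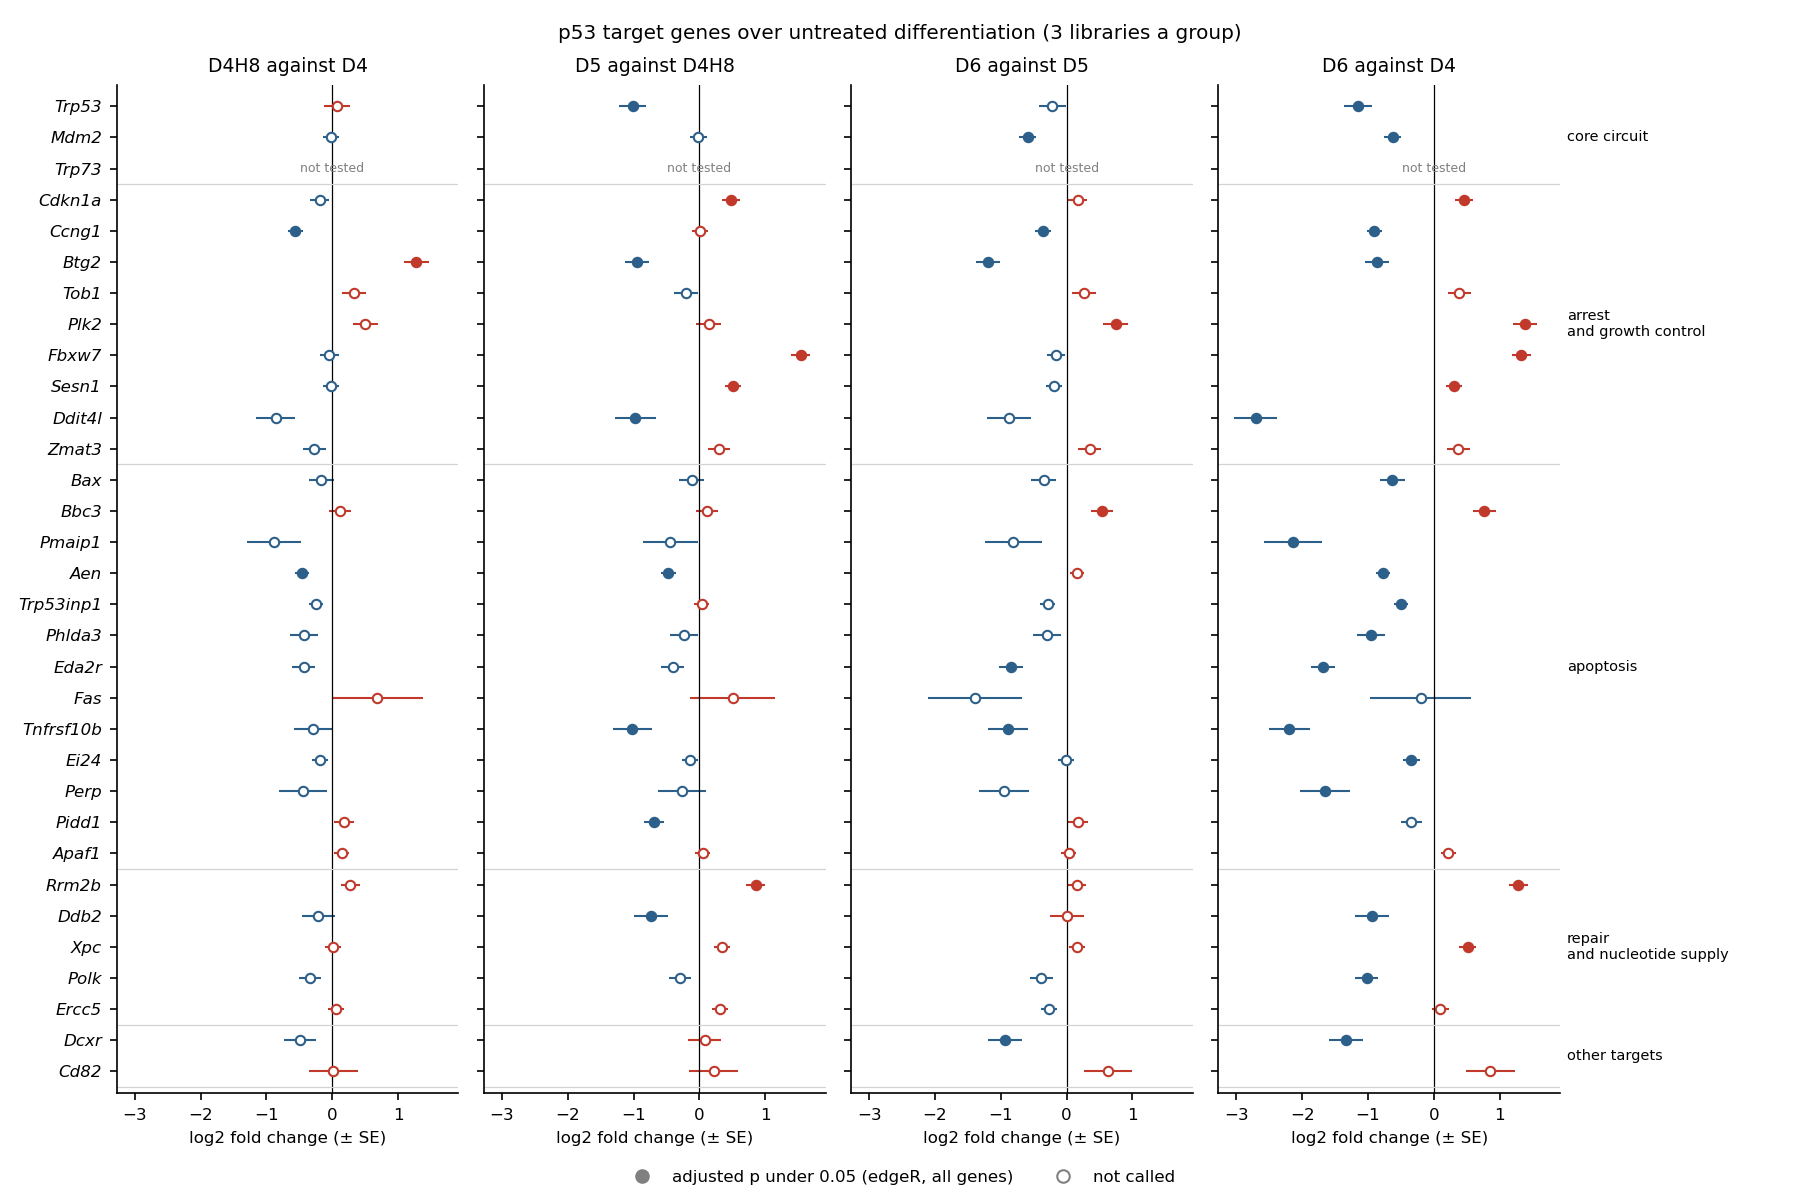
Log2 fold change (± SE, x axis) of each p53 target gene (y axis, grouped by role) between untreated stages, 3 libraries a group, with filled points for an adjusted p under 0.05 in edgeR and red and blue for higher and lower. In the right panel (D6 against D4) 17 filled points lie below 0 and 7 above it, from -2.71 for *Ddit4l* to 1.39 for *Plk2*.

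The second question was what GSKJ4 did to the same genes at each stage. At D4H8, 9 of the 31 tested members were called higher and 0 lower, and 28 had a positive log2 fold change. They were *Mdm2*, *Cdkn1a*, *Ccng1*, *Pmaip1*, *Trp53inp1*, *Eda2r*, *Tnfrsf10b*, *Perp* and *Polk*, at 1.99 to 3.27 times the untreated level. *Trp53* mRNA was not called. Among all 16269 tested genes 2.11% were called higher and 1.85% lower, against 29.0% of the members called higher. The median of the members was 0.75 and that of all tested genes 0.02. All 3 treated libraries lay above all 3 untreated ones, in read counts scaled by library size, for 15 of the 31 members and for 18.5% of all tested genes.

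In the core circuit *Trp53* had 45.4, 25.5 and 46.4 FPKM in the GSKJ4 libraries at D4H8, against the 45.5 to 50.1 of the untreated ones given above, and the groups overlap (-0.35, SE 0.21, adjusted p = 0.33). *Mdm2* had 52.0, 46.2 and 39.4 FPKM with GSKJ4, each above its 3 untreated values (1.01, SE 0.19, adjusted p = 0.026). These were also the highest *Mdm2* values among the 21 libraries.

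In arrest and growth control *Cdkn1a* had 62.4, 25.8 and 35.5 FPKM with GSKJ4 against 13.04 to 17.7 untreated, a rise in all 3 libraries of unequal size (1.34, SE 0.28, adjusted p = 0.038). *Ccng1* went from 65.5, 69.3 and 69.7 FPKM to 187, 221 and 138 (1.40, SE 0.23, adjusted p = 0.020), and its group mean with GSKJ4 was the highest of the members in any group. *Ddit4l* had 6.65, 4.16 and 3.69 FPKM against 1.37, 2.05 and 2.36, without overlap, and missed the threshold (1.31, SE 0.32, adjusted p = 0.053). *Zmat3*, an RNA-binding protein, had 23.0, 15.5 and 11.54 against 7.74, 8.09 and 10.2, also without overlap (0.91, SE 0.26, adjusted p = 0.074). *Plk2* (26.5, 19.4 and 10.6 against 13.6, 10.7 and 8.65 FPKM) overlapped and was not called (0.75, SE 0.33, adjusted p = 0.20).

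*Btg2* stood apart from the other members of its group. Its GSKJ4 libraries had 41.6, 15.7 and 27.7 FPKM against 47.3, 35.1 and 41.0 in the untreated ones, and its log2 fold change was -0.60 (SE 0.29, adjusted p = 0.24). *Tob1* (0.35, SE 0.27), *Fbxw7* (0.35, SE 0.18) and *Sesn1* (0.10, SE 0.22) were not called either.

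In the apoptosis group 5 of 13 genes were called higher and all 13 had a positive log2 fold change. *Perp* had the largest change of all members, from 5.75, 7.25 and 8.69 FPKM to 33.2, 18.8 and 20.6 (1.71, SE 0.26, adjusted p = 0.019). *Trp53inp1*, which encodes a nuclear cofactor of p53, went from 25.0, 27.1 and 30.2 to 67.4, 107 and 55.7 (1.48, SE 0.28, adjusted p = 0.029). *Pmaip1* went from 4.29, 5.22 and 8.23 to 22.4, 11.1 and 14.9 (1.41, SE 0.30, adjusted p = 0.039). All 3 genes were higher in every treated library than in any D4, D5 or D6 library without GSKJ4, except *Pmaip1*, whose D4 value of 12.4 in replicate 3 exceeds 11.1.

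Of 3 receptor genes in the group 2 were called, and *Fas*, the classical death receptor, was not (1.02, SE 0.53, adjusted p = 0.26). *Tnfrsf10b* went from 5.80, 7.12 and 7.62 FPKM to 22.9, 14.1 and 15.9 (1.33, SE 0.21, adjusted p = 0.019). *Eda2r* went from 7.90, 8.56 and 9.40 to 19.8, 18.9 and 13.5 (0.99, SE 0.21, adjusted p = 0.037). Neither overlapped, and both are genes that the untreated course lowered.

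The remaining apoptosis genes were uneven between the treated libraries. *Phlda3*, a repressor of Akt signalling, had 88.9, 22.5 and 59.1 FPKM against 21.3, 26.2 and 24.9 (1.17, SE 0.37, adjusted p = 0.097). *Bax* had 117, 37.7 and 143 against 69.7, 101 and 88.9 (0.13, SE 0.37, adjusted p = 0.86), and *Bbc3* 40.2, 7.28 and 22.6 against 13.3, 14.7 and 15.1 (0.63, SE 0.45, adjusted p = 0.40). In each of these 3 genes replicate 2 with GSKJ4 lay within or below the untreated range while replicates 1 and 3 lay above it. *Apaf1*, the apoptosome scaffold, did not overlap (17.8, 18.9 and 11.46 against 8.53, 8.63 and 9.46 FPKM) and was not called (0.84, SE 0.23, adjusted p = 0.072). *Ei24*, *Aen* and *Pidd1* had log2 fold changes of 0.39, 0.26 and 0.35, with SE of 0.16, 0.21 and 0.37. Without D4H8+GSKJ4 replicate 1 the changes of *Bax*, *Bbc3* and *Pidd1* were negative and 10 of the 13 genes positive, and without replicate 3 that of *Bax* was negative and 12 were positive.

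Of the repair genes *Polk* alone was called, with 10.8, 11.6 and 9.48 FPKM against 3.62, 4.46 and 6.03 (1.16, SE 0.23, adjusted p = 0.031). *Rrm2b* (0.07, SE 0.27), *Ddb2* (0.23, SE 0.24), *Xpc* (-0.06, SE 0.19) and *Ercc5* (0.40, SE 0.18) were not. *Dcxr* had 19.6, 6.02 and 14.96 FPKM against 5.54, 6.88 and 5.13 and was not called (1.14, SE 0.37, adjusted p = 0.10), nor was *Cd82* (0.58, SE 0.44).

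The D4H8 calls rest on every untreated library. Without D4H8 replicate 1, 2 or 3 no member was called, although the 9 changes stayed at or above 0.95, 0.97 and 1.04 (lowest adjusted p = 0.11, 0.086 and 0.067) and 15, 14 and 14 members had an unadjusted p under 0.05 and were higher. The numbers called were 6 without D4H8+GSKJ4 replicate 1, 14 without replicate 2 and 9 without replicate 3. Among all tested genes these 3 fits called 193, 998 and 266 higher. Without D4H8 replicate 1, 2 or 3 only 2, 3 and 3 of all tested genes were called higher, against 343 with all libraries kept. With all kept, 16 members and 2290 of 16269 tested genes were higher at an unadjusted p under 0.05.

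D4H8+GSKJ4 replicate 2 differed from the other 2 treated libraries in a way that went with gene length. Over 11609 genes with a mean of at least 100 counts, its departure from them had a Spearman correlation of 0.44 with exonic length, across genes that are not independent of each other. Genes of at most 2985 exonic bases had a median departure of -0.61 (log2) and those of at least 7232 bases of 0.18. Replicate 3 had a correlation of -0.52 by the same measure, with medians of 0.38 for the short and -0.20 for the long genes, and replicate 1 one of -0.13, each set against a mean that holds replicate 2. In the 18 libraries of other groups the correlation ran from -0.33 to 0.30. Over the 28 members with as many counts the correlation was 0.69 in replicate 2, -0.58 in replicate 1 and -0.59 in replicate 3. For these members it ran from -0.59 to 0.53 in the 18 libraries of other groups. The 6 shortest tested members were uneven in replicate 2. Its log2 ratio to the untreated mean was 0.04 for *Dcxr* (1144 bases), -0.10 for *Phlda3* (1559), -1.20 for *Bax* (1576), 1.38 for *Perp* (1952), 0.04 for *Fas* (2062) and -0.97 for *Bbc3* (2124). *Perp* was thus raised in that library although short. Among longer members the ratio was 1.97 for *Trp53inp1* (6475) and 1.09 for *Apaf1* (9028). The part of length in the member values was not tested.

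**Figure D2:**
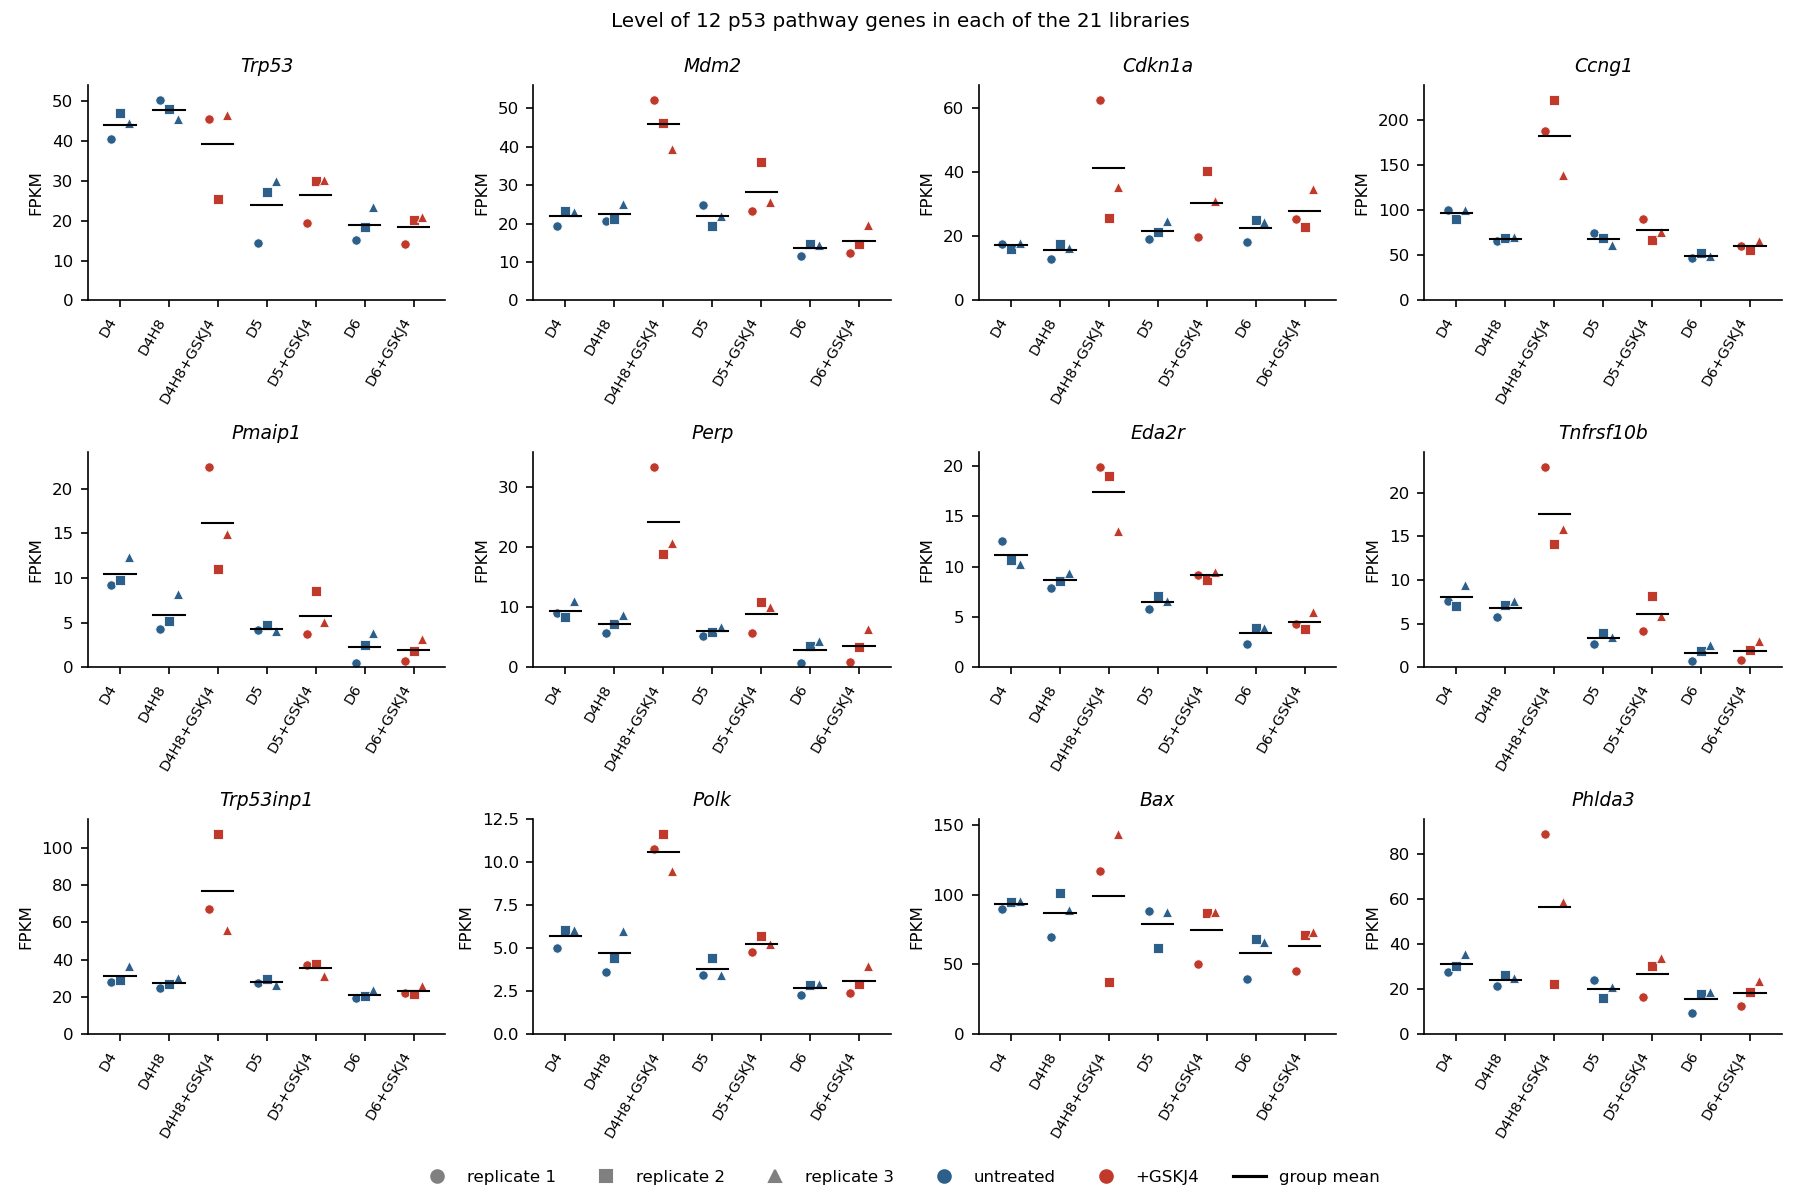
FPKM (y axis, linear from 0) of 12 p53 pathway genes in each of the 21 libraries, by group (x axis, blue untreated, red with GSKJ4), with symbols for replicates and bars for group means. In 9 of the panels (*Mdm2* to *Polk*) every red D4H8 point lies above every blue D4H8 point, while *Trp53*, *Bax* and *Phlda3* overlap.

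**Figure D3:**
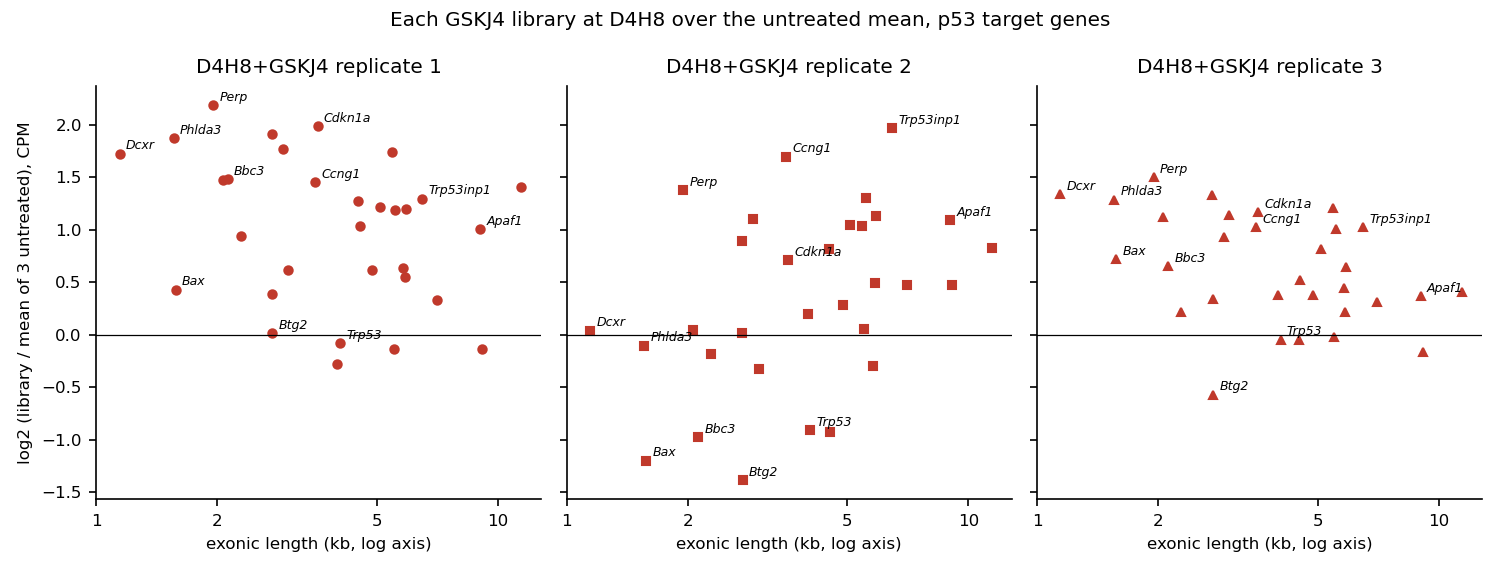
Log2 ratio of each GSKJ4 library at D4H8 to the mean of the 3 untreated ones (y axis, CPM with 0.1 added) against exonic length (x axis, log scale) for the 31 tested members, 1 panel a replicate. In replicate 2 the short genes *Bax* (-1.20) and *Bbc3* (-0.97) lie below 0, *Perp* (1.38), also short, lies above it and *Trp53inp1* (1.97) is highest, while in replicates 1 and 3 *Bax* and *Bbc3* lie above 0.

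Genes near the pathway were read from lists of general knowledge. These lists too were chosen with earlier results of these data known, so they are not independent support. Of 30 other p53 targets 4 were called higher with GSKJ4 at D4H8 and 0 lower (median 0.50), led by *Zfp365* (1.86, SE 0.29, adjusted p = 0.019), *Lif* (1.78, SE 0.31, adjusted p = 0.024) and *Abhd4* (1.02, SE 0.18, adjusted p = 0.025). The list was not uniform, with a positive log2 fold change in 23 of the 30. All 3 treated libraries lay above all 3 untreated ones for 13 of them (18.5% of all tested genes) and below for 2. Of 20 tested p53 regulators, such as kinases and cofactors, 1 was higher, *Ppp1r13b*, a gene of the ASPP family of p53-binding proteins (1.14, SE 0.26, adjusted p = 0.044). *Rpl11*, a ribosomal protein that binds Mdm2, had 129, 57.5 and 181 FPKM against 286, 293 and 247 and was not called (-1.24, SE 0.32, adjusted p = 0.062). Of 25 cell-cycle genes 0 were called higher and 4 lower (median -0.44), with *Rrm2* (-1.24, SE 0.17, adjusted p = 0.013), *Aurka* (-0.99, SE 0.18, adjusted p = 0.026) and *Pcna* (-0.94, SE 0.19, adjusted p = 0.033) first by p. Of 14 integrated stress response genes 2 were called higher, *Trib3* (1.83, SE 0.24, adjusted p = 0.010) and *Atf3* (1.34, SE 0.32, adjusted p = 0.0498).

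Markers of cell types moved in the same comparison. Of 8 motor neuron progenitor markers 4 were called lower and 0 higher, with sums of 256 to 349 FPKM untreated and 60.2 to 126 with GSKJ4. Of 12 motor neuron markers 3 were lower (252 to 439 against 103 to 253). None of the pluripotency (10 tested), feeder fibroblast (9), endoderm (6) and interneuron (4) markers was called. Still, 9 of 10 pluripotency markers (median 0.69) and 9 of 9 fibroblast markers (median 0.60) had a positive log2 fold change. So had 4 of 6 endoderm markers (median 0.58) and 2 of 4 interneuron markers (median -0.11). Their sums went from 62.6 to 263 untreated to 127 to 285 FPKM for pluripotency, from 16.4 to 22.1 to 24.3 to 39.6 for fibroblasts and from 94.3 to 119 to 105 to 221 for endoderm. *Afp* had no read in 7 of the 21 libraries and at most 0.68 FPKM, and *Lum*, *Twist2* and *Thy1* at most 0.70, 0.17 and 0.91. The part of these cell-type differences in the member values was not tested.

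At D5 no member was called after GSKJ4, in edgeR or in DESeq2, and 1 of all tested genes was called higher (0.00613%) and 0 lower (0%). Of the members 4 had an unadjusted p under 0.05, all higher, and 27 of 31 had a positive log2 fold change (median 0.27, all genes -0.02). All 3 treated libraries lay above all 3 untreated ones for 7 members and for 6.44% of all tested genes. These were *Tnfrsf10b*, *Eda2r*, *Trp53inp1*, *Polk*, *Apaf1*, *Ddb2* and *Cd82*. Other lists moved beside the members, also without calls. All 14 integrated stress response genes had a positive log2 fold change (median 1.16, with 10 of 14 not overlapping), and 11 of 12 motor neuron markers a negative one (median -0.50, with 7 of 12 not overlapping and sums of 1219 to 1561 FPKM against 1606 to 1840). Their part in the member values was not tested.

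*Tnfrsf10b* had 4.19, 8.22 and 5.85 FPKM against 2.67, 3.93 and 3.48 (0.80, SE 0.26, adjusted p = 0.98). *Eda2r* had 9.19, 8.66 and 9.50 against 5.76, 7.12 and 6.57 (0.45, SE 0.16) and *Polk* 4.80, 5.73 and 5.27 against 3.47, 4.45 and 3.48 (0.42, SE 0.19). *Cdkn1a* overlapped, with 20.0, 40.4 and 31.1 against 19.1, 21.5 and 24.9 (0.43, SE 0.22, adjusted p = 0.98), as did *Mdm2* (0.31, SE 0.19) and *Trp53* (0.11, SE 0.26). In this comparison *Trp53* turned to -0.14 without D5 replicate 1. The highest treated values of *Tnfrsf10b*, *Polk*, *Cdkn1a* and *Mdm2* came from replicate 2, the library with 39381 genes without a read. *Eda2r* was lowest of the treated libraries there. The part of that library's difference in these values was not tested. For 5 of the 9 members called at D4H8 (*Mdm2*, *Cdkn1a*, *Ccng1*, *Pmaip1* and *Perp*) the D5 groups overlap.

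At D6 edgeR called no member without a replicate block, nor any other tested gene (0% higher and 0% lower), while 88 genes were higher and 134 lower at an unadjusted p under 0.05. Of 30 tested members 1, *Ccng1*, had an unadjusted p under 0.05, and DESeq2 called no member either. *Ccng1* had 60.4, 55.3 and 66.2 FPKM with GSKJ4 against 46.5, 52.1 and 49.7, the only member without overlap, where 2.82% of all tested genes had all treated above all untreated libraries. Libraries with the same number deviated together at this stage, and with the replicate number as a block *Ccng1* was called (0.29, SE 0.05, adjusted p = 0.0061), as were 0.294% of all tested genes in that direction. It was the single member called with the block. *Cdkn1a* had 25.6, 23.1 and 34.8 FPKM against 18.4, 25.3 and 24.5 (0.29, SE 0.17), *Mdm2* 12.2, 14.7 and 19.7 against 11.54, 14.6 and 14.4 (0.19, SE 0.16), and *Trp53* 14.1, 20.3 and 20.8 against 15.1, 18.4 and 23.3 (-0.05, SE 0.18). All 3 overlap.

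**Figure D4:**
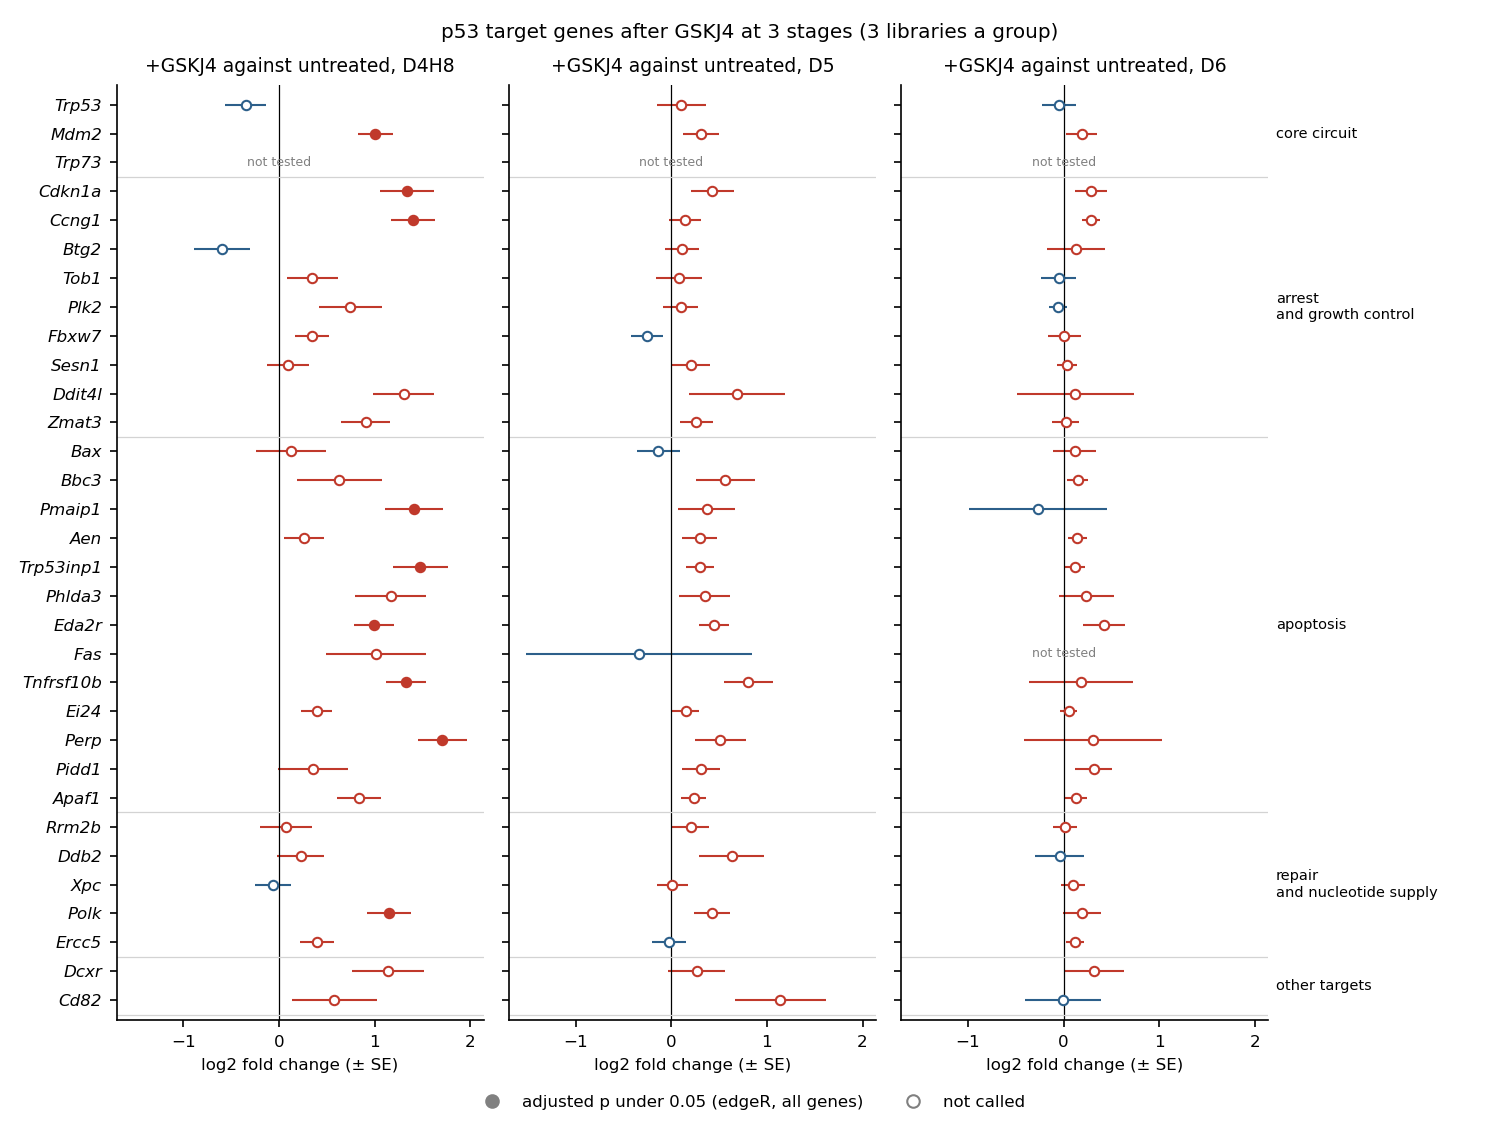
Log2 fold change (± SE, x axis) of each p53 target gene (y axis, grouped by role) with GSKJ4 against untreated at D4H8, D5 and D6, 3 libraries a group, with filled points for an adjusted p under 0.05 in edgeR. The 9 filled points all lie in the D4H8 panel, from 0.99 (*Eda2r*) to 1.71 (*Perp*), and no point is filled at D5 or D6.

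Whether the GSKJ4 effect differed between stages was tested by interaction terms over 18 libraries. D6 against D4H8 called 1 member, *Trp53inp1*, whose effect was smaller at D6 (difference -1.36, SE 0.30, adjusted p = 0.045), where 0.182% of all tested genes were called in that direction. *Ccng1* came next (-1.11, SE 0.27, adjusted p = 0.073), then *Polk* (-0.96, SE 0.29, adjusted p = 0.14), and 27 of 31 differences were negative (median -0.57, all genes 0.00). D5 against D4H8 and D6 against D5 called no member, with 8 and 0 members at an unadjusted p under 0.05. The 8 were all lower, where 912 and 171 of 18103 tested genes were lower at that threshold. The *Trp53inp1* call was lost without any one of the untreated D4H8, D5 or D6 libraries, among others, and with adjusted p from 0.00036 to 0.15 it passed in 10 of 24 alternatives. So for the other 8 members called at D4H8 a difference between stages was not shown.

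The stage fit and the GSKJ4 fit at D4H8 share the untreated D4H8 libraries, although D6 against D4 compares other libraries. The comparisons are set side by side only. Of the 9 members called higher with GSKJ4 at D4H8, 8 were called lower from D4 to D6 in untreated cells (*Mdm2*, *Ccng1*, *Pmaip1*, *Trp53inp1*, *Eda2r*, *Tnfrsf10b*, *Perp* and *Polk*), and *Cdkn1a* was called higher in both. Beside the 8 of 9 stand the 54.8% of tested members and the 31% of all tested genes called lower in that comparison. *Plk2*, *Fbxw7*, *Rrm2b*, *Bbc3*, *Xpc* and *Sesn1*, called higher along the untreated course, had GSKJ4 changes at D4H8 of 0.75, 0.35, 0.07, 0.63, -0.06 and 0.10, none of them called.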

How the data were processed

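The authors captured poly(A) RNA, aligned trimmed reads with HISAT2 (mm10) and used HTSeq for gene counts, each replicate on its own, as the labels' processing notes and the methods state. The deposited raw counts per gene were tested, and the deposited FPKM values, which the authors scaled by exonic length and counted reads, served as levels. Symbols, positions and exon overlaps came from GENCODE M21 and GRCm38. In R 4.3.3, edgeR 4.0.16 was run with TMM factors and filterByExpr (minimum count 10), and p-values were adjusted by Benjamini-Hochberg across the tested genes. The stage fit held the 12 untreated libraries, each GSKJ4 fit its own 6, and the interactions 18. Depth of 14982115 to 34383842 counts limits *Trp73* and *Fas*. Alternatives were DESeq2 1.42.0, other factors (RLE, upper quartile), filters (none, or 10 counts in all libraries), the replicate number as block, a single model of the 21 libraries, and leave-one-out fits. Scripts were first tested on simulated data. Same-numbered libraries correlated at 0.66, 0.32 and 0.45 in their deviations from the group means at D6, so the numbers pair there, from the data. The members and lists were chosen with earlier results of these data known. Values in every sample are given for *Trp53*, *Cdkn1a*, *Mdm2*, members called after GSKJ4 without or with the block, and the 6 members with the largest called change from D4 to D6, and at most 3 genes of each other list are named by p. 1 of 15 stress response symbols (*Ddit3*) matched 2 identifiers and was left out. The replicates are labelled biological, with separate cultures not described, so p-values measure the spread between these samples. Promoter windows came from RefSeq.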

Additional observations from a re-analysis of the deposited data

Results flagged for a closer look

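The GSKJ4 effect on *Trp53inp1* differed between stages by the interaction test, with a log2 difference of -1.36 (SE 0.30) at D6 against D4H8 and an adjusted p of 0.045 in edgeR over all tested genes. Its level rose from 25.0, 27.1 and 30.2 to 67.4, 107 and 55.7 FPKM at D4H8 and was 22.0, 21.6 and 25.8 with and 19.5, 20.4 and 23.6 without GSKJ4 at D6. The adjusted p was 0.0058 to 0.15 when single libraries were left out and 0.023 with the replicate block.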

How the results depend on the processing

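Counts of called members are given as the main value and its alternatives. With all 21 libraries in 1 fit, D4H8 against D4 called 1 (main 3), D5 against D4H8 called 5 (main 11) and D6 against D5 called 5 (main 8). GSKJ4 at D4H8 called 9, and 15 with no filter, 16 with the replicate block (15 higher and 1 lower, *Btg2*) and 14 with DESeq2. At D6 it called 0, and 1 with the block. The difference of the GSKJ4 effect between D5 and D4H8 called 0, then 1 with upper-quartile scaling, 2 with no filter, 1 with at least 10 counts in every library, 1 with the block and 2 with DESeq2, and that between D6 and D4H8 called 1, then 2, 6, 2, 2 and 3. With a library left out, the counts ran from 1 to 4, 7 to 12, 4 to 9 and 22 to 26 for the 4 stage comparisons in the order D4H8 against D4, D5 against D4H8, D6 against D5 and D6 against D4, from 0 to 14 for GSKJ4 at D4H8, and from 0 to 2 and 0 to 4 for the 2 differences. Among all genes GSKJ4 at D4H8 called 343 higher and 301 lower, against 1229 and 1058 with no filter, 1235 and 1039 with the block, 1123 and 834 with DESeq2 and 1058 and 990 with all 21 libraries. At D5 it called 1 higher and 0 lower, against 49 and 79 with no filter, 4 and 0 with the block and 27 and 38 with DESeq2. At D6 it called 0 and 0, against 48 and 209 with the block and 0 and 1 with DESeq2. The all-gene median of D6 against D4 was -0.04, and -0.19 with upper-quartile factors. Among 64 values (the called members, *Trp53*, *Mdm2* and *Cdkn1a* with GSKJ4, and *Ccng1* with GSKJ4 at D6), direction reversed for *Trp53* with GSKJ4, at D5 (main 0.11, from -0.14 without D5 replicate 1 to 0.29 without D5 replicate 3) and at D6 (main -0.05, from -0.16 without D6 replicate 1 to 0.10 without D6 replicate 3, and 0.09 without D6+GSKJ4 replicate 1). Of the 1119 alternative fits of these 64 values 986 kept direction and call, 129 kept direction and lost the call, 1 gained it and 3 reversed. Over all tested members, at least 1 alternative turned the sign of 6 of 31 with GSKJ4 at D4H8 (*Sesn1*, *Bax*, *Bbc3*, *Pidd1*, *Rrm2b* and *Xpc*), 9 of 31 at D5 and 16 of 30 at D6, and of 5, 9, 3 and 2 of 31 in the 4 stage comparisons. None of those members was called in the comparison concerned. The causes were not tested. Depth limits *Trp73* and *Fas*.

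At D4H8 the deviations of same-numbered libraries correlated at 0.44, 0.073 and 0.26, and at D5 at 0.22, 0.038 and 0.21. These values are positive but mostly smaller than those at D6, so whether the numbers pair at D4H8 and D5 is not settled. Beside them stands the pluripotency sum, lowest in replicate 1 of every group, those of D4H8 and D5 included. The block at these stages is an alternative, with 16 members called at D4H8 and 0 at D5.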
